A study of Homo sapiens with 9 samples.

Results

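ARID2-alone promoter peaks are places near a transcription start site (TSS) where ARID2, but neither ARID1A nor ARID1B, had a called ChIP-seq peak in HepG2, an established human hepatocellular carcinoma line. They were chosen by their position in the 3 deposited ARID peak lists, as ARID2 peaks of the authors' promoter class that shared 0 bases with any ARID1A or ARID1B peak. The rule kept 4062 peaks, which is 46.7% of the 8705 ARID2 promoter peaks and part of 12995 ARID2 peaks in all, and they were assigned to 3458 gene names. The other 4643 ARID2 promoter peaks, called shared below, overlapped a peak of ARID1A, of ARID1B or of both. The series held 9 libraries, 2 replicates for each of ARID1A, ARID1B, ARID2 and SNF5 plus 1 input, all from HepG2 cells in ordinary medium with no treatment recorded and no transgene or knockdown named. The ARID1A and ARID1B antibodies came from Santa Cruz, and the ARID2 and SNF5 antibodies from Bethyl. The authors merged both replicates before calling peaks, so each subunit had 1 list. No value below has a replicate error, and how deeply each list was sequenced is unknown. A missing ARID1A or ARID1B peak therefore means that none was called there, not that the protein was shown to be absent. Peaks carry no RNA levels, so the identity of the cells was not checked against marker genes.

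SWI/SNF complexes use the energy of ATP to slide or evict nucleosomes. ARID1A and ARID1B are alternative subunits of the BAF form, and ARID2 is a subunit of the PBAF form, which also carries PBRM1, BRD7 and PHF10. SNF5, also called BAF47 or SMARCB1, is a core subunit of both forms, so a PBAF complex bound to DNA can in principle be captured with either the ARID2 or the SNF5 antibody.

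Sequences of 8 ARID2-alone promoter peaks are shown first, to let the base composition be seen beside the numbers. The first 5 are the widest with no ARID1A, ARID1B or SNF5 peak within 10 kb, at SREK1IP1, ZNHIT6, TTC18, BMS1 (a ribosome assembly factor) and SENP5 (a SUMO protease). The next 2 are the whole peaks at SPOCK2, a proteoglycan gene that the study followed in detail, and the last lies at HNF4A, which encodes a master regulator of hepatocytes. Each is the longest stretch of the peak outside annotated exons, cut to at most 300 bases around its middle, from hg19 (GRCh37), plus strand, 5′ to 3′. Capitals mark matches to any of the 14 motifs listed further on, on either strand.
SREK1IP1, chr5:64063974-64064273: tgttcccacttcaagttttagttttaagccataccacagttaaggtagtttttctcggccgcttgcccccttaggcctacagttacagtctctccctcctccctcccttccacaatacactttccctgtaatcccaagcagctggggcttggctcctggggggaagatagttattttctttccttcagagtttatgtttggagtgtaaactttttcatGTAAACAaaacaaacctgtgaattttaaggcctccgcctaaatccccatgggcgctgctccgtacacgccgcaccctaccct
ZNHIT6, chr1:86174117-86174259: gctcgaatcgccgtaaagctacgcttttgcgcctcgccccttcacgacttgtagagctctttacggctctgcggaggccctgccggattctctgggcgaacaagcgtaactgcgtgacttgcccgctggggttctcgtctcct
TTC18, chr10:75118623-75118821: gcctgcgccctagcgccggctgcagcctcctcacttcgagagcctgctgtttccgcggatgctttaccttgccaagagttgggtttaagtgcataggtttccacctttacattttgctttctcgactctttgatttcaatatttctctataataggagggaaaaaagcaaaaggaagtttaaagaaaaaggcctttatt
BMS1, chr10:43277944-43278242: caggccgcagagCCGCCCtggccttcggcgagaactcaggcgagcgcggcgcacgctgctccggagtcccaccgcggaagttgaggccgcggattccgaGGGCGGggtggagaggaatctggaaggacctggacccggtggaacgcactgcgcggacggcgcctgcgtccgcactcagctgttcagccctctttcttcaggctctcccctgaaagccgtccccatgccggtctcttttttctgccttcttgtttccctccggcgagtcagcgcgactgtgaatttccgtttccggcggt
SENP5, chr3:196594673-196594726: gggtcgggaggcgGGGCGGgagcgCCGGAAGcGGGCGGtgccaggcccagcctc
SPOCK2, first member, chr10:73828825-73828876: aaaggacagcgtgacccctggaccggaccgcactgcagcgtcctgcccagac
SPOCK2, second member, chr10:73848443-73848494: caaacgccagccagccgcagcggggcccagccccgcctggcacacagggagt
HNF4A, chr20:42984086-42984338: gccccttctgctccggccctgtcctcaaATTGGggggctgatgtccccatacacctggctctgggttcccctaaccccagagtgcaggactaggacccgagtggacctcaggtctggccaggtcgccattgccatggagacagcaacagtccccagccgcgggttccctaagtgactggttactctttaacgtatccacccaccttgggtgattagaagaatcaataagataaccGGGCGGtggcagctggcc
The SENP5 stretch was 83.3% G or C and held 2 GC boxes and 1 ETS motif in 54 bases. The BMS1 stretch held 33 CpG dinucleotides in 299 bases and 2 GC boxes. The SREK1IP1 stretch, from the intronic part of a peak 941 bp wide, was 48.0% G or C, with 7 CpG dinucleotides in 300 bases and 1 match, to the FOXA motif. The stretches at ZNHIT6, TTC18 and SPOCK2 held no match to the 14 motifs.

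ARID2-alone promoter peaks were narrower than shared ones and more often lay beside the TSS rather than on it, traits they had in common with the 1142 ARID1B-alone promoter peaks. Their median width was 158 bp, with quartiles of 96 and 230 bp and a range of 52 to 1034 bp. Shared ARID2 promoter peaks had a median width of 262 bp, and ARID1A-alone promoter peaks, selected in the same way from the ARID1A list, had one of 176 bp, and ARID1B-alone promoter peaks one of 137 bp. The median distance from the peak midpoint to the nearest TSS of Gencode v44 was 277 bp, against 97 bp for shared, 134 bp for ARID1A-alone and 275.5 bp for ARID1B-alone promoter peaks. Only 27.9% of ARID2-alone promoter peaks were centred within 100 bp of a TSS, while 50.9% of shared, 42.8% of ARID1A-alone and 25.3% of ARID1B-alone ones were. Most of the difference was taken up downstream, in the transcribed part of the gene. Of ARID2-alone promoter peaks, 44.2% were centred more than 100 and up to 1000 bp downstream of the TSS. The share was 23.8% of shared and 31.9% of ARID1A-alone peaks. Upstream, at the same distances, the 3 groups held 26.3%, 24.9% and 24.6%. Within that zone ARID2-alone peaks lay farther out. Their share was the highest of the 3 groups in each bin of 100 bp from 1000 to 300 bp upstream. The midpoint fell in an intron for 48.9%, in an exon for 34.6% and outside genes for 16.5%, whereas shared peaks were most often centred in an exon (47.4%). The nearest TSS belonged to a protein-coding gene for 82.6% and to a long noncoding RNA gene for 13.6%. An oppositely directed start within 1000 bp upstream of that TSS, a divergent promoter, was annotated for 28.4%, against 35.8% of shared, 27.9% of ARID1A-alone and 17.3% of ARID1B-alone peaks. Since the rule used these same peak boundaries, widths and positions are given as a description, with no test.

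**Figure D1:**
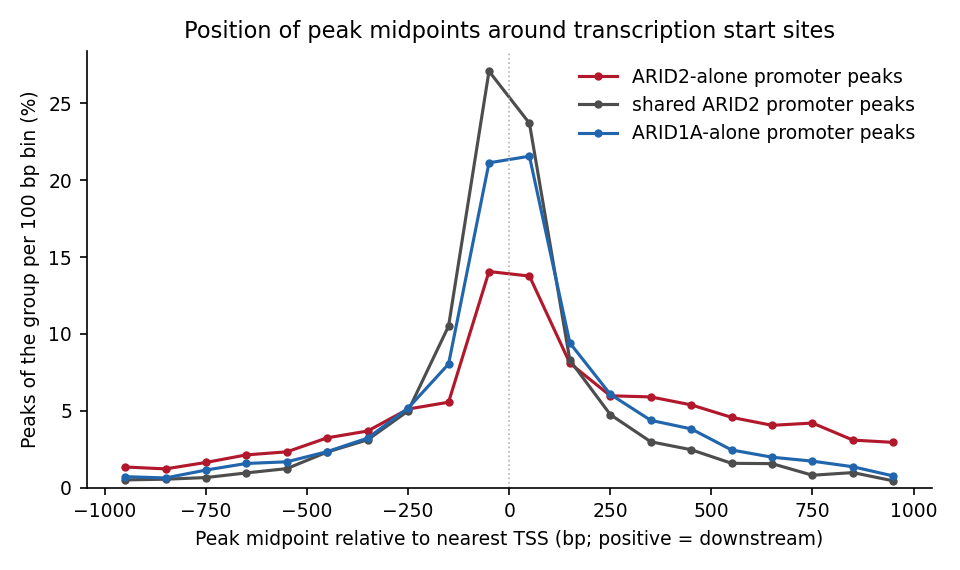
Share of each group's peaks (y axis, %) by the position of the peak midpoint relative to the nearest TSS (x axis, bp in bins of 100 bp), for ARID2-alone, shared ARID2 and ARID1A-alone promoter peaks. The ARID2-alone line is lower than both others next to the TSS and higher from 300 to 1000 bp on either side of it, with the wider margin downstream.

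Most ARID2-alone promoter peaks had another ARID close by. An ARID1A or ARID1B peak lay within 1000 bp of 2470 of them (60.8%), within 500 bp of 1867 (46.0%) and within 100 bp of 543 (13.4%). The neighbour was mostly ARID1A, with a median gap of 692 bp (quartiles 246 and 26948 bp), while the median gap to ARID1B was 39208 bp. Where an ARID1A peak lay within 1000 bp (2324 peaks), the ARID2-alone peak was downstream of it along the gene in 1496 cases (64.4%), and the ARID1A peak was the closer of the pair to the TSS in 1113 (47.9%). In 933 of these 2324 cases (40.1%) that ARID1A peak was itself overlapped by another ARID2 peak, so that the ARID2-alone peak was a further, separate ARID2 peak at a promoter that both bound. The other 1592 peaks (39.2%), here called isolated, had no ARID1A or ARID1B peak within 1000 bp. They were centred nearer to the TSS, at a median of 202.5 bp against 322.5 bp for those with a neighbour, and 1171 of them also had no second ARID2 peak within 1000 bp. At the edge of the rule, 7 peaks touched an ARID1A or ARID1B peak with 0 bp between them, among them those at MST1L, XPOT and SLC38A3, and the authors' own label marked 7 as bound by multiple ARIDs. Just outside it, the ARID2 promoter peaks at ATF3, SLIT1 and CCDC87 shared 1 bp with another ARID and so counted as shared.

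**Figure D2:**
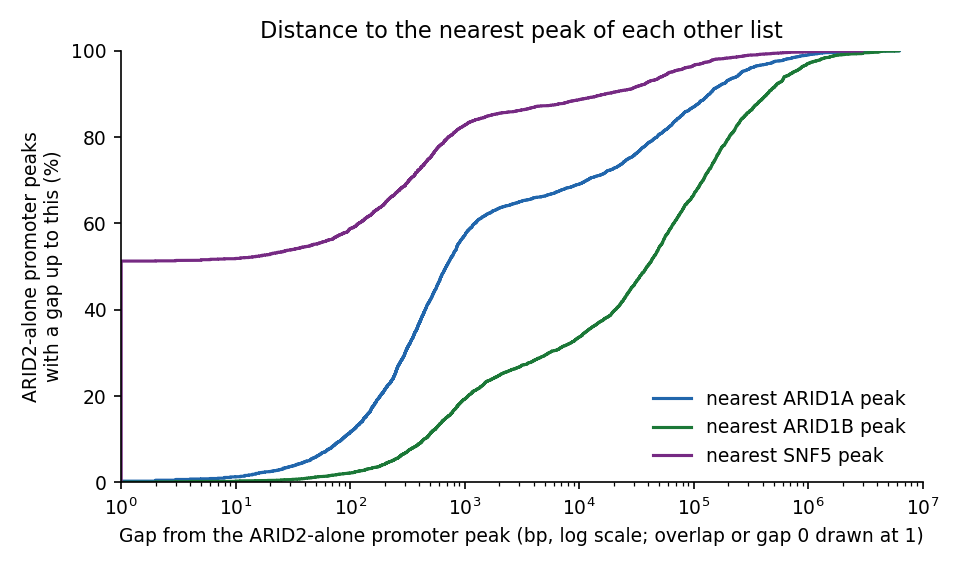
Cumulative share of the 4062 ARID2-alone promoter peaks (y axis, %) by the gap to the nearest ARID1A, ARID1B or SNF5 peak (x axis, bp on a log scale; overlaps and gaps of 0 are drawn at 1). The ARID1A line climbs most steeply between 100 and 1000 bp, and the SNF5 line starts at the 51.1% that overlapped.

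SNF5, whose list the rule did not use, was found less often at these peaks than at shared ones. The comparison is still not independent of the rule, because SNF5 is a subunit of the BAF form too. Shared peaks overlapped ARID1A or ARID1B peaks, where BAF could bring SNF5 as well, and that part was not tested. An SNF5 peak overlapped 2077 of the 4062 ARID2-alone promoter peaks, or 51.1% (Wilson 95% interval 49.6 to 52.7). It overlapped 87.4% of shared ARID2 promoter peaks (86.4 to 88.3), and 70.5% of all ARID2 promoter peaks. The difference was -36.3 percentage points (95% interval -38.1 to -34.5), the odds ratio was 0.151 (0.135 to 0.167), and the adjusted p was 6.04e-310 (two-sided Fisher exact test, Benjamini-Hochberg over 4 tests). The lower share was seen on 22 of the 22 chromosomes with at least 20 peaks in each group. Against ARID1A-alone promoter peaks, at 58.4% (57.0 to 59.8), the ARID2-alone share was lower by a smaller margin, with a difference of -7.29 points (-9.37 to -5.20) and an odds ratio of 0.745 (Fisher exact test, adjusted p = 1.87e-11), on 20 of 22 chromosomes. Where an SNF5 peak within 1000 bp was enough, that margin was gone, at 82.7% against 81.6% (difference 1.10 points, -0.513 to 2.70, Fisher exact test, adjusted p = 0.188). Against the 2697 ARID2-alone peaks in introns and distal regions, of which 44.9% (43.0 to 46.7) met SNF5, the promoter peaks were overlapped more often, with an odds ratio of 1.29 (1.17 to 1.42, Fisher exact test, adjusted p = 6.05e-07), on 19 of 21 chromosomes. Within 5 strata of GC content the Mantel-Haenszel odds ratio was 1.10 (0.991 to 1.22), which did not pass the threshold (chi-square test of 4062 and 2697 peaks, adjusted p = 0.0734). Of ARID1B-alone promoter peaks 53.9% (51.0 to 56.8) met SNF5, for which no test was made. Peaks are not replicates, and neighbouring peaks share a promoter, so these intervals and p-values compare the deposited lists and cover counting error only. The subunit, its antibody and its depth cannot be told apart.

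Width moved with SNF5 overlap in every group. Among ARID2-alone promoter peaks the share with SNF5 was 506 of 1149 (41.2 to 46.9%) at 52 to 104 bp and 197 of 259 (70.5 to 80.9%) at 383 bp or more. In the narrowest class shared peaks stood at 78.9% (75.4 to 81.9), an interval that overlapped that of the widest ARID2-alone class. Compared within 5 strata of width, the odds ratio against shared peaks was 0.211 (0.189 to 0.236). Closeness to the TSS moved with it less, with 57.4% of ARID2-alone peaks overlapped within 100 bp of a TSS and 48.0% farther downstream, up to 1000 bp. A neighbouring ARID also moved with it: 56.4% of ARID2-alone promoter peaks with an ARID1A or ARID1B peak within 1000 bp met SNF5, and 42.9% of isolated ones did. Of the 1985 without an SNF5 overlap, 1283 (64.6%) still had an SNF5 peak within 1000 bp, and their median gap to SNF5 was 512 bp.

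**Figure D3:**
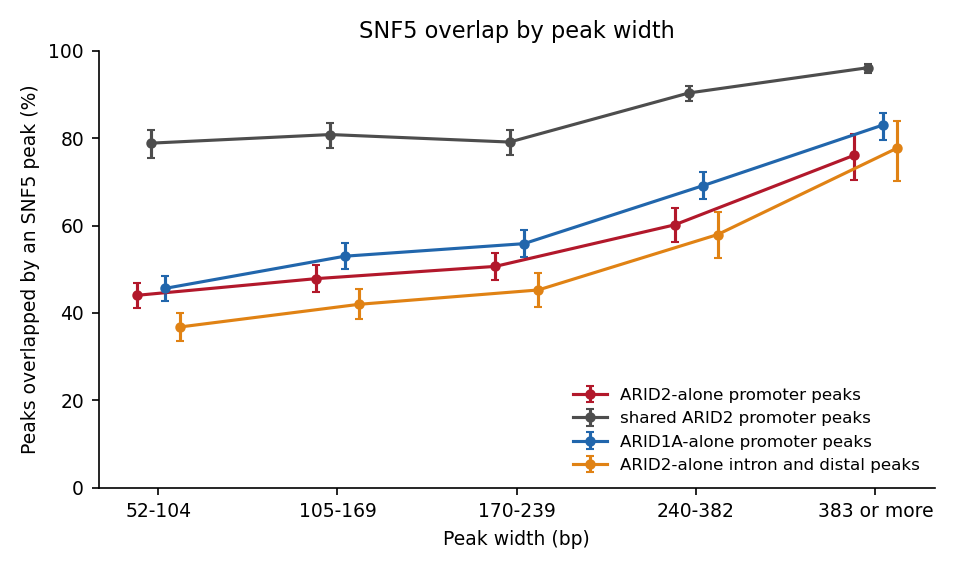
Share of peaks overlapped by an SNF5 peak (y axis, %) in 5 classes of peak width (x axis, bp), with Wilson 95% intervals, for 4 groups of peaks. The shared ARID2 points lie above the other groups in each width class, and all groups are highest at 383 bp or more.

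The SNF5 peaks that met ARID2-alone promoter peaks numbered 1905, or 9.19% of the SNF5 list, and came in 2 kinds. In 1062 of them the same SNF5 peak also reached an ARID1A or ARID1B peak. These were 1351 bp wide at the median and had a median score of 22.5. The score is the whole number deposited with each SNF5 peak. The other 843 met no other ARID, and were narrower and lower, with medians of 560 bp and 19. A wider SNF5 peak reaches another peak more easily, so the 2 kinds are not independent of width. These 843 held 897 ARID2-alone promoter peaks, 43.2% of those that met SNF5. The midpoint of ARID2-alone promoter peaks lay at a median of 60.0% of the way from the middle of the SNF5 peak to its edge. The median was 42.1% for shared ARID2, 55.0% for ARID1A-alone and 51.7% for ARID1B-alone promoter peaks. For ARID2-alone intron and distal peaks it was 57.3%. The highest SNF5 scores over ARID2-alone promoter peaks were 53 at RP11-703H8.9, 50 at GPR137, 47 at WDR74, 46 at ZNF341 and 45 at CCDC117, against a median of 21 for all that met SNF5.

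The DNA under ARID2-alone promoter peaks was less GC-rich than under shared ARID2 and ARID1A-alone promoter peaks, and more GC-rich than under ARID2-alone intron and distal peaks. In windows of 300 bp around the midpoint, the median GC content was 55.3% (95% interval of the median 55.0 to 56.0), against 65.0% for shared ARID2, 66.7% for ARID1A-alone and 56.3% for ARID1B-alone promoter peaks, and 47.0% for ARID2-alone intron and distal peaks. The ratio of observed to expected CpG had medians of 0.618, 0.821, 0.775, 0.519 and 0.256 in the same order. A window with at least 50% GC and a ratio of at least 0.6, the classic description of a CpG island, was found for 44.2% of ARID2-alone and 78.2% of shared peaks. The share was 72.0% for ARID1A-alone and 39.7% for ARID1B-alone promoter peaks. Part of this went with position: within 100 bp of a TSS the median GC content was 62.7% for ARID2-alone and 67.3% for shared peaks, and farther downstream, up to 1000 bp, it was 52.7% and 62.0%. Isolated peaks had a median of 57.0%. These are descriptions with no test, and intervals cover counting over windows.

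Several short motifs were less frequent under ARID2-alone than under shared ARID2 promoter peaks. Of 14 motifs searched, each on both strands, the SP/KLF GC box (GGGCGG) was in 38.3% of ARID2-alone windows, 62.8% of shared, 61.8% of ARID1A-alone promoter windows and 45.0% of 35116 RefSeq promoters of the same length (GRCh38.p14, 250 bases before to 50 after the start). The RefSeq windows lay at the start of the gene, and the GC box share moved with position. Within 100 bp of a TSS the GC box was in 58.2% of ARID2-alone and 70.4% of shared windows. Farther downstream, up to 1000 bp, it was in 30.4% and 50.4%. The other motifs were not split by position. The ETS motif (CCGGAAG) was in 7.11% of ARID2-alone, 13.9% of shared and 11.7% of ARID1A-alone windows (RefSeq promoters 10.3%). NRF1, the activator of many mitochondrial genes, had its motif (TGCGCATG) in 1.26% of ARID2-alone, 5.77% of shared and 1.41% of ARID1A-alone windows (RefSeq promoters 2.18%). The cyclic AMP response element, with the letters TGACGTCA, was in 0.763% of ARID2-alone, 2.97% of shared and 1.65% of ARID1A-alone windows (RefSeq promoters 1.85%). The E-box (CACGTG) was in 5.93%, 9.71% and 7.94% in the same order (RefSeq promoters 7.26%). The CGCG element, written CTCGCGAG, was in 1.26%, 2.33% and 0.835% (RefSeq promoters 1.02%). The TATA box (TATAAA) went the other way, with 8.27% of ARID2-alone, 4.31% of shared and 4.09% of ARID1A-alone windows (RefSeq promoters 11.5%).

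Other motifs differed less between ARID2-alone and shared promoter peaks, although AP-1 and TEAD, like the TATA box, were more frequent under ARID2-alone ones. The YY1 motif (AAGATGG) was in 5.37% and 5.92% (RefSeq promoters 5.84%). The NFY box (CCAAT) was in 29.7% and 28.7% (RefSeq promoters 34.6%). The AP-1 motif (TGANTCA) was in 5.61% and 4.20% (RefSeq promoters 7.71%), and in 9.94% of ARID2-alone intron and distal windows. The TEAD motif (ACATTCC) was in 3.62% and 2.46% (RefSeq promoters 3.46%). The ZNF143 motif (ACTACAA) was in 2.68% and 2.65% (RefSeq promoters 2.77%). Among factors of the liver, the FOXA motif (TGTTTAC) was in 3.05% and 2.46% (RefSeq promoters 3.42%), and the HNF4 motif (CAAAGTCC) in 1.43% and 1.38% (RefSeq promoters 1.20%). The motifs were searched independently, so a base could belong to more than 1 match. A match gives letters in a window and no binding.

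The deposited chromatin state could be read on chromosome 1 alone. Where an ARID2 peak and an ARID1A peak overlapped, and so lay at the same place, their deposited states were the same for 86.1% of 461 pairs on chromosome 1 (60.0% from the frequencies of the states) but for 48.2% of 4963 pairs on all other chromosomes (42.5% from the frequencies). On chromosome 1, 353 of 455 ARID2-alone promoter peaks, or 77.6% (73.5 to 81.2), were in the active promoter state, 12.7% in the weak promoter state and 7.03% in a strong enhancer state. The active promoter share was 81.1% (77.0 to 84.6) of shared ARID2 promoter peaks and 36.6% of ARID2-alone intron and distal peaks there. ARID2-alone and shared promoter peaks did not differ past the threshold on that chromosome (odds ratio 0.805, 0.578 to 1.12, Fisher exact test, p = 0.208, not adjusted). The test over all chromosomes gave 65.3% against 62.2%, beside 63.7% of all ARID2 promoter peaks, with an odds ratio of 1.15 (1.05 to 1.25, Fisher exact test, adjusted p = 0.00239). Given the mismatch of states, nothing was read from it.

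Several ARID2-alone peaks could mark the same gene. Of the 3458 gene names, 2933 had 1, 455 had 2, 61 had 3 and 9 had 4. For the 525 with at least 2, the midpoints spanned a median of 1.00 kb, and in 417 they lay within 2 kb. The 5 genes first by number and summed width, with 4 each, were NCOA4 (a nuclear receptor coactivator that also directs ferritin turnover), ANO6 (a membrane scramblase), NFIA (a transcription factor), RERE (a corepressor) and SEPT9 (a septin). At ANO6 the 4 peaks, 163 to 263 bp wide, lay around the start of the gene on chromosome 12 between positions 45608713 and 45610682. The nearest ARID1A peak was at least 510000 bp away and an ARID1B peak was 22122 to 23929 bp away. At SEPT9, in contrast, the same number stood among 12 ARID2 promoter peaks, 21 ARID1A and 15 ARID1B peaks assigned to the gene, and the gaps to another ARID were 50 to 579 bp. For 2278 of the 3458 gene names (65.9%) an ARID1A or ARID1B peak was assigned to the same gene somewhere. The other 1180 had none, and 45.1% of their 1334 ARID2-alone promoter peaks met SNF5.

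The widest ARID2-alone promoter peaks were found at LSM1 (1034 bp, an RNA decay factor), SREK1IP1 (941 bp, a splicing regulatory protein), METTL7A (938 bp, a methyltransferase-like protein), TRMT1L (931 bp, related to tRNA methyltransferases) and ZHX1 (916 bp, a homeobox repressor). They were followed by TJAP1 (851 bp), ZNF207 (841 bp, a spindle protein with zinc fingers), NFAT5 (828 bp, the osmotic stress transcription factor), TADA3 (814 bp, a subunit of histone acetyltransferase complexes) and IDUA (811 bp, a lysosomal enzyme). SNF5 overlapped 8 of these 10, all except SREK1IP1 and METTL7A, beside 76.1% of all ARID2-alone promoter peaks of 383 bp or more. At TRMT1L and TADA3 the nearest other ARID was 160423 and 60554 bp away, and the SNF5 peaks there had scores of 25 and 23. At the other end, 309 ARID2-alone promoter peaks (7.61%) had no ARID1A, ARID1B or SNF5 peak within 10 kb. Their median width was 142 bp and their median GC content 59.3%.

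Among genes with any ARID2 promoter peak, 54.2% held an ARID2-alone one, and most gene lists stood near that background. Of 17 lists, 12 had a Wilson 95% interval that held it, 1 lay above and 4 below, with no test made and no list trimmed. The list above was the interferon response genes, at 11 of 13 (84.6%, 57.8 to 95.7), the widest at IRF9 (479 bp, the DNA-binding part of the interferon-activated factor ISGF3), IFNGR1 (368 bp, a receptor chain for interferon gamma), IRF3 (304 bp, the factor that starts interferon transcription) and IFNAR1 (233 bp, a receptor chain for type I interferon). At IRF9 the nearest other ARID was 13586 bp away and SNF5 overlapped the peak with a score of 26, whereas at IFNAR1 an ARID1B peak lay 205 bp away and SNF5 did not overlap. The 4 lists below were replication-dependent histone genes (12 of 40, 30.0%), DNA repair (11 of 36, 30.6%), Mediator, RNA polymerase II and TFIID (9 of 26, 34.6%) and mitochondrial ribosomal proteins (13 of 36, 36.1%). In the histone list 1 of 13 ARID2-alone peaks was isolated, beside 39.2% of all ARID2-alone promoter peaks, with no test made. The histone genes lie in clusters, and the widest, at HIST1H2AC (356 bp), lay 982 bp downstream of its nearest TSS, inside an SNF5 peak of 6080 bp. The DNA repair genes that held one included WRN (548 bp, a RecQ helicase), PALB2 (355 bp, the partner of BRCA2), MSH6 (237 bp, mismatch recognition) and RNF168 (218 bp, a ubiquitin ligase at breaks).

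Hepatocyte genes held an ARID2-alone promoter peak at 16 of 23 genes (69.6%, 49.1 to 84.4), an interval that reached the background. SNF5 overlapped 15 of their 19 peaks (78.9%), beside 51.1% of all ARID2-alone promoter peaks, with no test made. At HNF4A a peak of 649 bp lay 31 bp upstream of a TSS, with an SNF5 peak of 1345 bp over it and the nearest other ARID, an ARID1B peak, 2880 bp away. It was 1 of 3 ARID2 promoter peaks assigned to HNF4A, which also had 3 ARID1A and 0 ARID1B peaks assigned. APOA2 (421 bp), an apolipoprotein of HDL, had 2 ARID2 promoter peaks, both ARID2-alone, with 0 ARID1A and 0 ARID1B peaks assigned to it. G6PC (341 bp), the last enzyme of glucose release, lay 19108 bp from another ARID, and APOH (261 bp) lay 81 bp from an ARID1A peak. The sequence at HNF4A shown above held an inverted CCAAT box and a GC box.

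Other lists of general cell functions had intervals that held the background. Cytoplasmic ribosomal proteins had 26 of 48 (54.2%), C2H2 zinc finger genes 85 of 159 (53.5%), chromatin regulators 30 of 56 (53.6%), respiratory chain subunits 21 of 36 (58.3%), proteasome subunits 14 of 25 (56.0%), and cyclins, CDKs and mitosis 20 of 35 (57.1%). RPL31 (591 bp) was the widest of the ribosomal group and had an ARID1A peak 431 bp away, while at RPL21 (389 bp) the nearest other ARID was 152313 bp away and the SNF5 peak had a score of 34. ATP5F1 (437 bp) and NDUFS4 (263 bp), subunits of ATP synthase and of complex I, were overlapped by no SNF5 peak and lay 58181 and 77207 bp from another ARID. In cohesin and condensin 7 of 14 genes held a peak, with SMC4 (340 bp), STAG1 (241 bp) and SMC3 (204 bp) among them. Over the 17 lists the share of ARID2-alone peaks that met SNF5 ran from 3 of 10 (30.0%, Mediator) to 7 of 7 (cohesin and condensin), beside 51.1% of all ARID2-alone promoter peaks, and with so few peaks in these lists nothing was read from the differences. Among cell cycle genes, CDKN1A, the p53-induced inhibitor p21, had 3 ARID2-alone among 6 ARID2 promoter peaks, and CDKN2C (663 bp) had the widest. Noncoding genes were likewise near, with microRNAs at 28 of 45 (62.2%), small nuclear and nucleolar RNAs at 29 of 49 (59.2%) and antisense, LINC and opposite-strand transcripts at 63 of 105 (60.0%). Small nuclear RNA genes have near-identical copies, at which the placement of short reads is uncertain. The median width in the 17 lists lay between 123 and 204 bp, beside 158 bp for all. Counting nearest genes does not show which gene a peak serves.

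**Figure D4:**
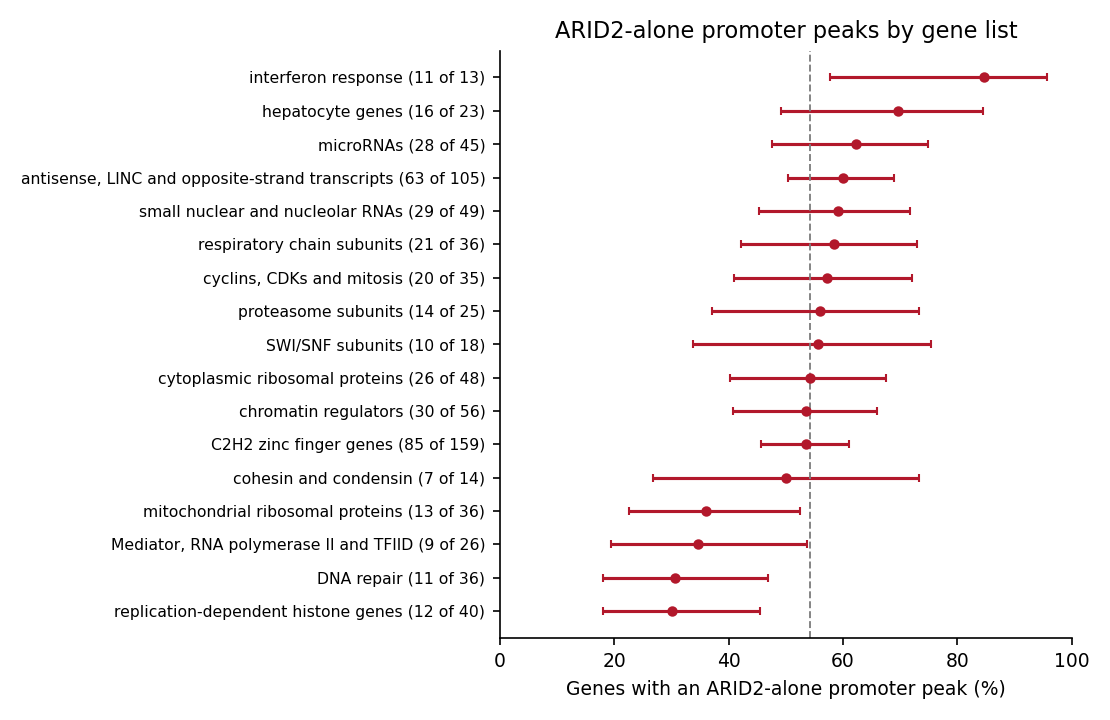
Share of the genes with an ARID2 promoter peak that held an ARID2-alone one (x axis, %) in 17 gene lists (y axis, with counts), with Wilson 95% intervals; the dashed line marks the 54.2% of all such genes. The interferon response interval lies to the right of the line, and those of histone, DNA repair, Mediator and mitochondrial ribosomal genes to the left.

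The SWI/SNF genes themselves held ARID2-alone promoter peaks at 10 of the 18 subunit genes with an ARID2 promoter peak (55.6%). ARID1B carried 1, 306 bp wide and 2055 bp from the nearest ARID1A peak, under an SNF5 peak with a score of 21. PHF10, a PBAF subunit, and SMARCE1, a subunit of both forms, had 1 each with ARID1A 239 and 57 bp away. SS18 and DPF1, subunits of the BAF forms, had 1 each with the nearest other ARID at 458037 and 150444 bp, and SNF5 overlapped that at SS18 with a score of 32 but not that at DPF1. SMARCA4, which encodes the ATPase BRG1, had 1 of 2, and the ARID2 promoter peaks at ARID1A, ARID2, PBRM1, SMARCB1 and SMARCC1 were all shared. Of the loci the study followed, SPOCK2 had 2 ARID2 promoter peaks, both ARID2-alone, of 52 bp each, the narrowest width in the list. They lay 24239 and 43857 bp from the nearest ARID1A peak and met no SNF5 peak, although an SNF5 peak lay 6 bp from the second. MYC had 1 of 2, which lay 555 bp from an ARID1A peak inside an SNF5 peak of 6552 bp. By the deposited nearest-gene name of each peak, KLF6 and RRAS had none among 2 and 1 ARID2 promoter peaks, and no ARID2 promoter peak was assigned to EPHA2, S100A14 or TNS4. Peaks at these genes that carry another gene's name are not in these counts. At EPHA2 the study itself described binding of ARID1A, ARID1B and ARID2 in the promoter and first intron, unlike the count here.

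The ARID2-alone share of ARID2 promoter peaks differed between chromosomes. It was lowest on chromosome 16, at 31.6% of 522 peaks (27.8 to 35.7), on 20, at 33.1% (28.3 to 38.3), and on 17, at 34.7% (31.3 to 38.2), and highest among autosomes on chromosome 8, at 61.3% of 274 (55.4 to 66.9). The median autosome stood at 51.0%. Chromosomes 6, 2 and 19 were also low, at 37.9%, 39.0% and 39.6%. These low chromosomes carried many ARID1A and ARID1B promoter peaks, 37.4 to 54.9 per 100 annotated genes against 12.2 to 34.5 on the other autosomes. Across 22 autosomes the share and that density had a Spearman rho of -0.754 and a Pearson r of -0.848, given as a description because both come from the same ARID1A and ARID1B peaks. ARID2 promoter peaks as a whole were dense there too, at 28.9 to 33.3 per 100 genes on chromosomes 2, 6, 16, 17 and 20. Chromosome 19 held 21.5, and the other autosomes 9.12 to 26.8. The number of ARID2-alone peaks per 100 genes was 9.13 on chromosome 16 and 11.5 on 17, within the 4.47 to 13.4 spanned by all autosomes. On the X chromosome 17 of 18 ARID2 promoter peaks were ARID2-alone, 1.38 per 100 genes. Since the rule removed ARID2 peaks that met the ARID1A and ARID1B lists, the share and the density of those lists cannot be told apart. DNA copy number per chromosome was not examined, and the densities are not corrected for it.

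**Figure D5:**
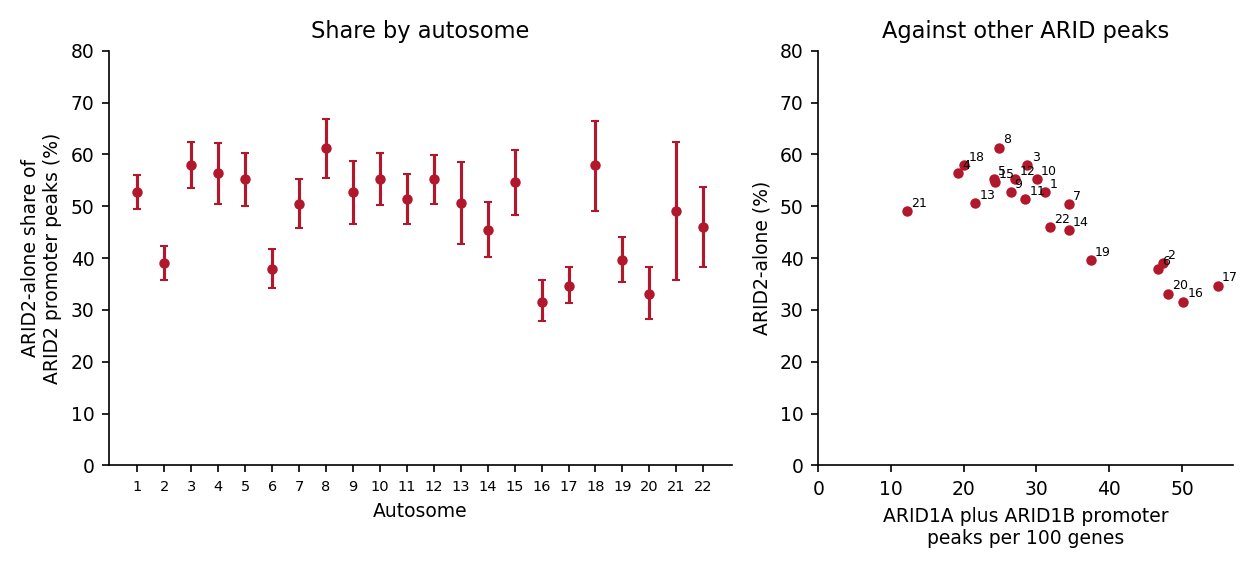
Left, share of ARID2 promoter peaks that were ARID2-alone (y axis, %) for each autosome (x axis), with Wilson 95% intervals; right, the same share against ARID1A plus ARID1B promoter peaks per 100 genes, each point an autosome. Chromosomes 16, 17 and 20 have the lowest shares and lie at the right, with the most other ARID peaks.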

How the data were processed

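Chromatin from HepG2 was digested with micrococcal nuclease and immunoprecipitated. Per the study's methods reads were mapped by the authors to hg19 (bowtie2), and they removed duplicates, merged the 2 replicates of each antibody, called broad peaks with MACS2, joined peaks within 100 bp, removed blacklisted regions, and assigned the nearest gene and class from Gencode 16. Whether the input was the control is not given in the sources used here. The deposited peak boundaries and TSS distances are in bp. The deposited score of the SNF5 list is a whole number from 10 to 134; the ARID lists carry no score. Starts are printed counted from 1.

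Overlap meant at least 1 shared bp. Fisher exact tests, two-sided, compared shares, adjusted by Benjamini-Hochberg over 4 tests at a threshold of 0.05, or with Mantel-Haenszel odds ratios within strata (scipy 1.17.1, statsmodels 0.14.6), checked on simulated data. In an alternative setting the adjustment covered only the results recomputed in that setting. The test on chromosome 1 only stood by itself, so its p was not adjusted. Sequence came from GRCh37, the assembly of hg19, and TSSs from Gencode v44 lifted to it. Promoter motif shares came from RefSeq. The rule named the 10 widest peaks, the 5 genes with most, the 5 widest far from other lists, the 5 under the highest SNF5 scores, the study's loci and subunit genes, up to 4 genes per list, and the peaks at the edge of the rule. Not all of those were printed. The members and lists were chosen with earlier results of these data known.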

Additional observations from a re-analysis of the deposited data

How the results depend on the processing

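Each of 6 results was recomputed under alternatives, 47 values in all, of which 39 had been planned and 8 were added later, chosen with the data seen (strata of TSS distance, within chromosomes, and chromosome 1 only). In 39 of them an odds ratio kept its direction and side of the threshold, the count stayed within 1.5 times of that reported, or the GC median stayed inside its 95% interval. The count so kept was lowest at 2823, with a TSS distance of at most 500 bp in place of the promoter class. The number of ARID2-alone promoter peaks was 2195 when a gap of at most 500 bp also removed a peak, 1592 with 1000 bp, and 7006 when only a reciprocal overlap of at least 50% did, against 4062 as reported. The GC median was 57.0% for peaks alone within 1000 bp, above the interval of the reported 55.3%. With an SNF5 gap of at most 1000 bp, the odds ratio against ARID1A-alone promoter peaks was 1.08. Within 5 strata of GC content that against ARID2-alone intron and distal peaks was 1.10. The chromatin state odds ratio was 1.05 within chromosomes and 0.805 on chromosome 1 only. The odds ratio of SNF5 overlap against shared peaks stayed between 0.108 and 0.231 in all alternatives. Why the other values moved was not tested.

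No paired analysis was possible because each list was called on both replicates merged, which also prevented leaving out a replicate. Without read counts, depth per library and the limit of detection are unknown.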
